A study of Brassica rapa subsp. pekinensis with 6 samples.

Results

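The predicted small RNAs of other lengths are the mature sequences of the deposited miRNA table that carry a PC name, which marks a miRNA predicted from a hairpin in the genome rather than matched to miRBase, and that are 18, 19, 20, 22, 23 or 25 nt long. Predicted sequences of 21 nt and 24 nt were left out, since they are the usual lengths of plant miRNAs and of heterochromatic small RNAs. The rule took 68 of the 889 distinct sequences in the table, listed on 73 of its 1159 rows. Of these 68 sequences, 33 were 22 nt long, 21 were 23 nt, 8 were 20 nt, 3 were 19 nt, 2 were 18 nt and 1 was 25 nt. No level entered the choice.

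Small RNA was sequenced from germinated seeds of Chinese cabbage (Brassica rapa subsp. pekinensis), a leafy crop that bolts and flowers after cold, all of the doubled haploid line FT. Ver seeds had been kept at 4 °C for 25 days after germination, and Nor seeds had stayed at room temperature for about 48 hours with no cold. Per the methods of the study both groups were held in the dark and taken at equal length. There were 3 Ver and 3 Nor libraries, which the study calls biological repeats with a dish of seeds as the unit, and whether a dish gave seeds to both groups is not stated. Because the groups differ in both temperature and time, cold and the length of the treatment cannot be told apart. The libraries held 589061 to 771529 reads in Ver and 749852 to 968483 reads in Nor over all rows of the table. By reads in the table Ver 1 lay above Nor 2 and Nor 3, but it had fewer valid reads, those left after filtering, than either. The samples are whole germinated seeds, in which fewer cells of a type and less RNA per cell cannot be told apart.

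Plant miRNAs are cut from hairpin transcripts by DICER-LIKE1, which most often leaves a short duplex of which 1 strand is kept in ARGONAUTE1. Precursors whose arms pair with a bulge can release 22 nt strands instead, and in Arabidopsis thaliana a miRNA of that length can set off the production of secondary small interfering RNAs from its target. DICER-LIKE2 also makes 22 nt RNAs, from long double-stranded RNA and inverted repeats. Vernalization is the long exposure to cold after which many Brassica crops become able to flower, and miR156, which holds back the SPL transcription factors, marks the juvenile phase.

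The sequences that carry the results are given 5′ to 3′ as the deposited table lists them, in DNA letters, with bases 2 to 8 (the seed, which weighs most in target pairing) in capitals. The 5 whose level differed between Ver and Nor come first.
PC-5p-1240_4181: gTATGTAGacgcactgtttctca
PC-5p-13953_448: tGAAGACTttgaacttttttgc
PC-3p-2324_2326: aAGCGAGAgcggaccgcct
PC-5p-16765_364: aTAACGAActtcaactcacagt
PC-3p-51421_76: tTACTCTAtatttcactctattt

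Several members were close to listed sequences of known families, and these are given next, each beside its relative. PC-5p-2335_2315 had the seed of bra-miR400-5p and differed from it by 1 inserted base. PC-3p-86238_31 differed from a listed miR156 star-strand variant by 1 letter, an N at base 2 that stands for a base that was not read.
PC-5p-2335_2315: tATGAGAGtattataaagtcac
bra-miR400-5p: tATGAGAGtattataagtcac
PC-3p-86238_31: gNTCACTGctttatctgtcaga
bra-miR156c-3p_1ss11CT: gCTCACTGctttatctgtcaga

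Others were close to a predicted sequence of the table. PC-5p-61004_57 was a 21 nt sequence without its last base, PC-3p-110709_19 and PC-3p-76610_38 extended another 21 nt sequence by 1 base, and PC-3p-79800_35 was the exact reverse complement of PC-5p-42301_104 over all 22 bases. PC-3p-219111_6 differed from PC-3p-51421_76 in its last base, whereas the shorter PC-5p-121121_16 shared its seed and first part and differed near its own 3′ end.
PC-5p-61004_57: tTATGCAGttgtgaataaac
PC-5p-39941_114: tTATGCAGttgtgaataaaca
PC-3p-110709_19: aATTCCGAggaaatgaatttcc
PC-3p-76610_38: aATTCCGAggaaatgaatttct
PC-3p-31365_162: aATTCCGAggaaatgaatttc
PC-5p-42301_104: cAAGTGTTcctcggaatttcct
PC-3p-79800_35: aGGAAATTccgaggaacacttg
PC-3p-219111_6: tTACTCTAtatttcactctattc
PC-5p-121121_16: tTACTCTAtatttcactttt

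Most of the 68 sequences were rare. Reads were listed for 64 of them in at least 1 library, and 4 (PC-3p-133334_13, PC-3p-194904_6, PC-5p-144961_11 and PC-5p-255121_5) had none in any. The highest value that a detected member reached in any library had a median of 9 reads, against 15 reads for predicted 21 nt sequences and 10 reads for predicted 24 nt sequences. Only 8 members had reads in all 6 libraries, and 12 had reads in a single library. The lowest value listed for a member was 2.5, and of the 208 nonzero values 28 were under 5 and 25 exactly 5. None was 1 or 2, as would follow from a minimum of 5 reads applied before the authors divided reads between rows or sequences. A listed 0 was therefore read as up to 5 reads, not as absence.

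**Figure D1:**
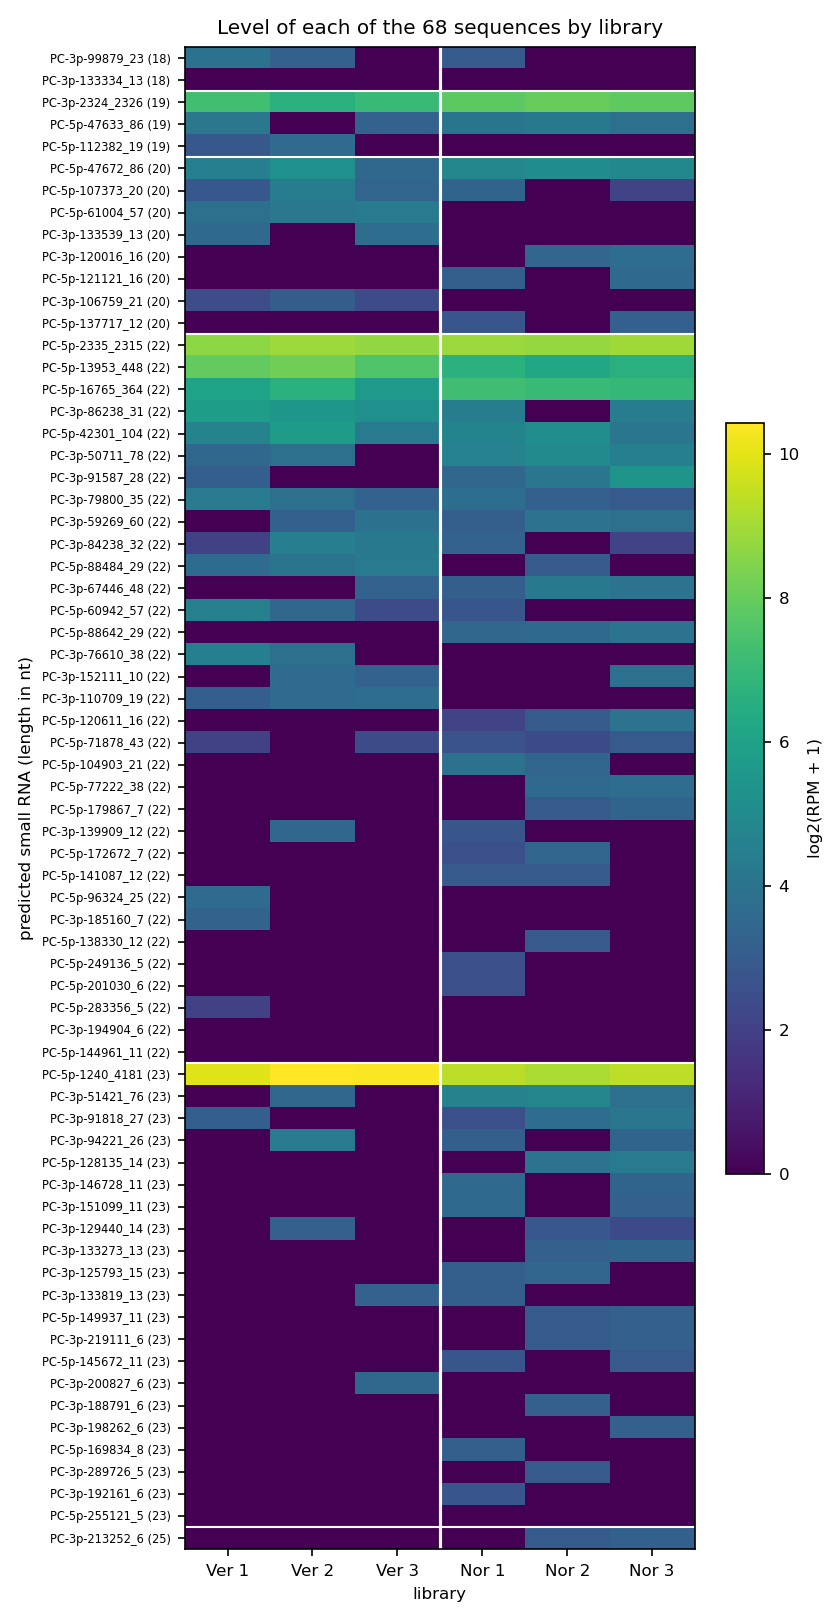
Level of each of the 68 sequences in each library as log2(RPM + 1), with rows ordered by length and then by mean level, Ver libraries to the left of Nor libraries and white lines between groups and lengths. A few sequences, among them PC-5p-1240_4181 and PC-5p-2335_2315, stand far above the others, and most rows are dark in at least 1 library.

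Fewer members were listed in Ver than in Nor, and at a matched level the counts of the groups were close. Of the 68, 37 had reads in at least 1 Ver library and 54 in at least 1 Nor library. Reads in Ver only were listed for 10 of the 64 detected members (15.6%), against 10.4% of all 872 detected sequences of the table, and reads in Nor only for 27 (42.2%), against 25.8%. Ver 1 held more reads in the table than Nor 2 and Nor 3, though fewer valid reads, and listed 28 members against 35 and 38. Levels are given as RPM, reads for each 1000000 in a library, counted over all rows and scaled by TMM. At 8.79 RPM or more, the level of 5 reads in Ver 3, the smallest library after scaling, 31 members were reached in Ver and 33 in Nor.

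The 23 nt members made up most of that difference before the level was matched. There were 2, 4 and 3 of the 21 in Ver 1, 2 and 3, against 11, 11 and 13 in Nor 1, 2 and 3, so the groups did not overlap. At 8.79 RPM the counts were 1, 3 and 3 in Ver and 4, 5 and 7 in Nor, which still did not overlap but differed by few sequences. For the 33 members of 22 nt, 17, 15 and 14 had reads in Ver and 21, 19 and 17 in Nor, and at the matched level 12, 14 and 12 in Ver and 11, 12 and 14 in Nor, which overlapped. Predicted 24 nt sequences, for comparison, numbered 33, 57 and 56 at the matched level in Ver and 97, 84 and 100 in Nor. Counts over the whole table did not overlap either, so the lack of overlap was not particular to 23 nt. They were 521, 513 and 493 with reads in Ver, against 689, 603 and 625 in Nor. At the matched level they were 420, 435 and 473 in Ver and 500, 477 and 503 in Nor. The part of depth in these counts was not tested.

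**Figure D2:**
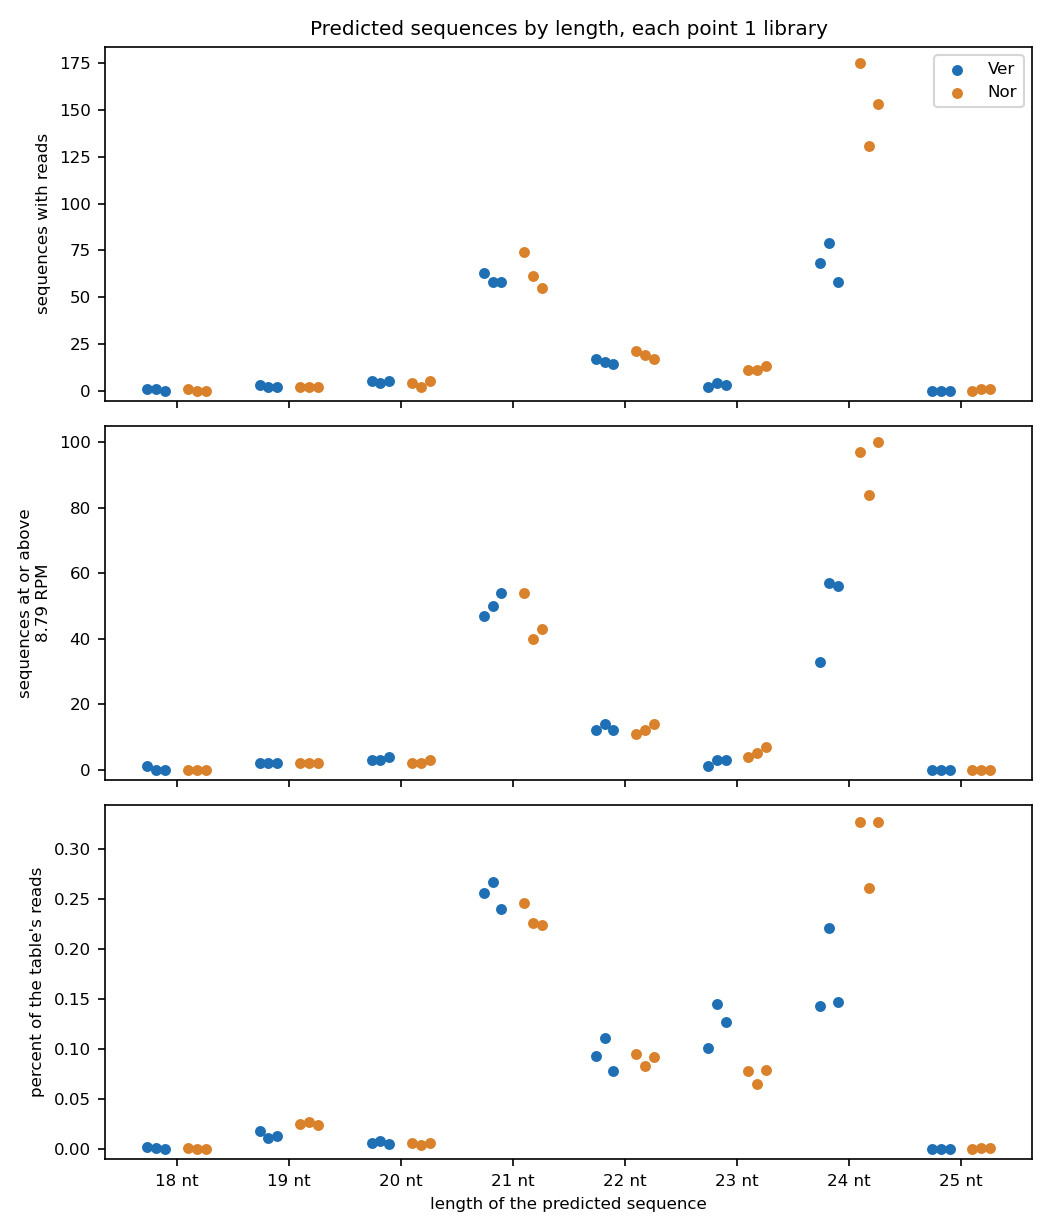
Number of predicted sequences with reads (top), number at or above 8.79 RPM (middle) and percent of the table's reads (bottom) for each length of predicted sequence, each point 1 library, Ver left of Nor. The 22 nt counts overlap between groups in the middle panel, whereas the 23 nt counts sit at 1 to 3 in Ver and 4 to 7 in Nor.

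Together the 68 sequences took 0.219%, 0.277% and 0.223% of the table's reads in Ver 1, 2 and 3, and 0.204%, 0.179% and 0.202% in Nor 1, 2 and 3. The share was 0.240% ± 0.0321 in Ver and 0.195% ± 0.0138 in Nor (SD, n = 3 each), and every Ver library lay above every Nor library. The 95% Wilson interval of a single library was at most 0.0134 percentage points to either side, which covers counting error only. This difference rested on PC-5p-1240_4181. Without it the share was 0.117% ± 0.0186 in Ver and 0.132% ± 0.00612 in Nor (SD, n = 3 each), and the groups overlapped. No test was applied to shares, since with 3 libraries a side an exact permutation test cannot go below p = 0.1.

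The 22 nt sequences took 0.0933%, 0.111% and 0.0776% of reads in Ver, and 0.0947%, 0.0828% and 0.0917% in Nor, so that the groups overlapped. The means were 0.0940% ± 0.0168 in Ver and 0.0897% ± 0.00619 in Nor (SD, n = 3 each). The 18, 19, 20, 23 and 25 nt sequences together took 0.126%, 0.165% and 0.145% in Ver and 0.110%, 0.0964% and 0.110% in Nor, without overlap. This difference too rested on PC-5p-1240_4181. It gave 770, 834 and 749 of their 970.5, 974.5 and 870.5 reads in Ver 1, 2 and 3. In Nor 1, 2 and 3 it gave 663, 409 and 503 of 1061.5, 724.5 and 826.5 reads. The share left without it was lower in every Ver library than in any Nor library. The 19 nt sequences alone were lower in Ver, at 0.0141% ± 0.00358 in Ver and 0.0254% ± 0.00132 in Nor (SD, n = 3 each). PC-3p-2324_2326 gave 92.4% of their reads.

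A few sequences held much of the reads on both arms and on some chromosomes. The 5p members held 7812 of the reads summed over the 6 libraries, of which PC-5p-1240_4181 gave 50.3%, and the 3p members held 1682, of which PC-3p-2324_2326 gave 50.1%. Among the 22 nt members 20 lay on the 5p arm and 13 on the 3p arm, and among the other lengths 13 lay on the 5p arm and 22 on the 3p arm. Chromosome A09 had the most rows, 16, but only 286.5 reads. Of these, 21.8% came from 1 row of its leading sequence PC-5p-42301_104. Both rows of that sequence lie on A09, so its full share there was larger than 21.8%. A03 had 5 rows with 4018 reads, 97.8% of them from PC-5p-1240_4181. On A05, 94.9% of 2119 reads came from PC-5p-2335_2315. On A02, A06 and A08 the leading sequence held 52.6%, 49.8% and 59.3% of the reads, and on A01, A04, A07 and A10 it held 27.4% to 31.7%. Among the chromosomes the concentration was thus strongest on A03 and A05.

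Of the 68 members, 13 passed the filter on low counts (edgeR), 8 of them 22 nt long, and 55 were too low to be tested. Among the 405 sequences of the whole table that were tested, 61.0% were called at an adjusted p under 0.05 (28.1% higher and 32.8% lower in Ver). Of the 13 members, 5 were called, 2 higher and 3 lower in Ver. Of the 8 tested 22 nt members 2 were called, and of the 5 tested members of the other lengths 3 were called. The median log2 fold change was -0.35 over the 13 members and -0.19 over all 405 sequences. The predicted sequences of 21 nt had 17 of 40 called and those of 24 nt had 16 of 39.

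**Figure D3:**
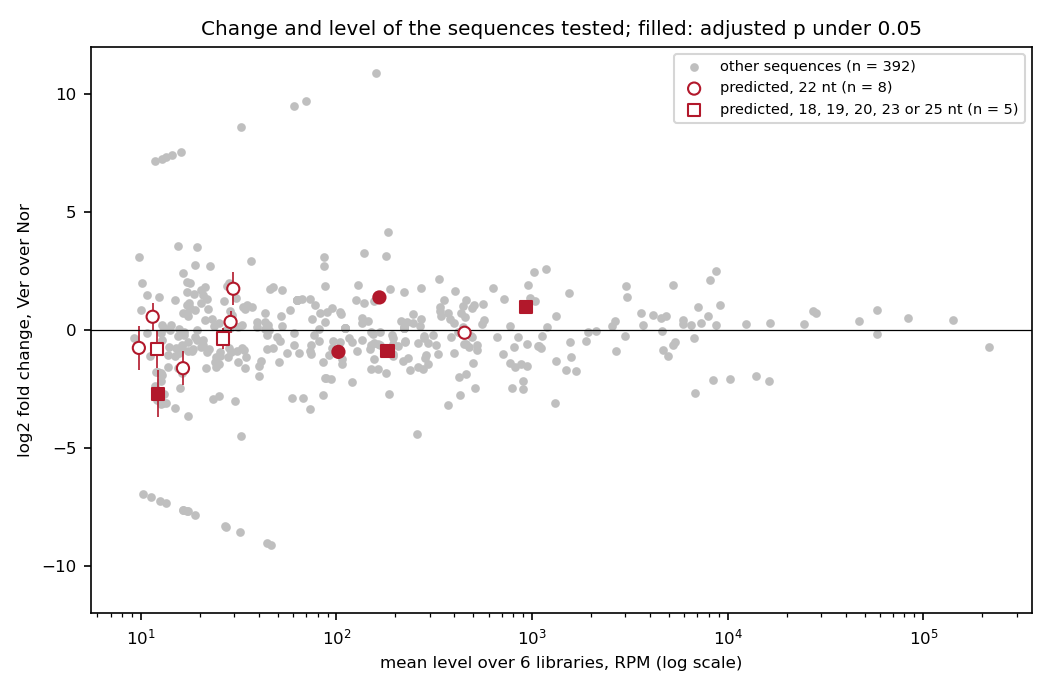
Log2 fold change of Ver over Nor (vertical) against the mean level in RPM on a log scale (horizontal) for the 405 tested sequences, with the 8 members of 22 nt as circles and the 5 of other lengths as squares, filled where the adjusted p was under 0.05 and with the standard error as a bar. The 5 filled symbols lie between -2.70 and 1.39, inside the range of the other sequences, shown in grey.

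PC-5p-1240_4181, a 23 nt sequence from the 5p arm of a hairpin on A03 (18886381 to 18886481, plus strand), was the most abundant member. It had 770, 834 and 749 reads in Ver 1, 2 and 3, against 663, 409 and 503 reads in Nor 1, 2 and 3. This was 1230 ± 214 RPM in Ver and 628 ± 64.7 RPM in Nor (SD, n = 3 each), and the lowest Ver library exceeded the highest Nor library. The log2 fold change was 0.97 (edgeR, adjusted p = 0.000246, SE 0.14), and it was called under every alternative that used an adjusted p. At 0.97 it did not reach the absolute log2 fold change over 1 that the study asked of a differentially expressed miRNA. No other listed sequence shared 16 bases in a row with it or lay in its hairpin, whose energy index (MFEI) of 0.9 was at the low end of the members. The hairpin is printed 5′ to 3′ with the listed sequence in capitals, to show where on the arm it lies.
PC-5p-1240_4181 hairpin: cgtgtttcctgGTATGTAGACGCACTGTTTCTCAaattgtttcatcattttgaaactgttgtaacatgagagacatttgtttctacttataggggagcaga

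PC-5p-13953_448 was the 22 nt member with the clearest increase in Ver. It had 192, 172 and 107 reads in Ver, against 103, 55 and 73 reads in Nor. The level was 240 ± 49.3 RPM in Ver and 91.4 ± 14.6 RPM in Nor (SD, n = 3 each), with no overlap between groups once depth was taken into account. Its log2 fold change was 1.39 (edgeR, adjusted p = 0.000193, SE 0.19), and the call held under all 16 alternatives.

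Its hairpin on A02 (28374349 to 28374532, plus strand) overlaps, on the opposite strand, the hairpin of a predicted 21 nt sequence, PC-3p-10948_574. PC-5p-13953_448 matches the reverse complement of the 21 nt sequence over 19 bases with 1 mismatch. PC-3p-10948_574 had 158, 133 and 107 reads in Ver and 66, 38 and 33 in Nor, a log2 fold change of 1.91 (SE 0.18). Reads of the 22 nt sequence amounted to 122% and 129% of those of the 21 nt sequence in Ver 1 and 2, were equal to them in Ver 3, and came to 156%, 145% and 221% in Nor. The proportion was thus lower throughout Ver than in any Nor library, with p = 0.1 in a two-sided exact permutation test, the lowest that 3 against 3 allows.
PC-5p-13953_448 hairpin: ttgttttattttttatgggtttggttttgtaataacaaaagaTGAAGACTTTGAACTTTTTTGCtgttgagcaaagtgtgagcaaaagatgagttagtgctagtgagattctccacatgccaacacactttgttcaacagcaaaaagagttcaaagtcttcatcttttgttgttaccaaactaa
PC-3p-10948_574: aAAAAGTTccaagtcttcatc

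PC-3p-2324_2326, a 19 nt sequence, was lower in Ver. It had 121, 58 and 74 reads in Ver, against 228, 189 and 172 reads in Nor. The level was 127 ± 29.4 RPM in Ver and 237 ± 17.0 RPM in Nor (SD, n = 3 each), and the groups did not overlap. The log2 fold change was -0.89 (edgeR, adjusted p = 0.00171, SE 0.18). Its hairpin lies on an unplaced scaffold, Scaffold0612 (37948 to 38048, plus strand), and holds the sequence only with 1 mismatch, so that the listed RNA is not an exact copy of the locus it is assigned to.

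PC-5p-16765_364, of 22 nt, also fell. It had 51, 60 and 27 reads in Ver, against 154, 95 and 90 reads in Nor. The level was 70.9 ± 26.6 RPM in Ver and 134 ± 15.5 RPM in Nor (SD, n = 3 each), without overlap. The log2 fold change was -0.92 (edgeR, adjusted p = 0.0120, SE 0.26). The call rested on Nor 1, the highest library: without it the log2 fold change was -0.73 and the adjusted p 0.0943. The sequence lies on A02 (18999222 to 18999404, plus strand) and shared no run of 16 bases with any other listed sequence.

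PC-3p-51421_76, of 23 nt, had 0, 6 and 0 reads in Ver, against 25, 19 and 10 reads in Nor. The fitted log2 fold change was -2.70 (edgeR, adjusted p = 0.0398, SE 0.99). The call was weak. It was lost when Ver 1, Ver 3, Nor 1, Nor 2 or Nor 3 was left out (log2 fold change -2.89 to -2.00, adjusted p 0.0766 to 0.156) and without a filter on low counts (adjusted p = 0.140), and its fold rests on 2 Ver libraries listed at 0. Without Ver 2, the Ver library with reads, the fitted log2 fold change was -7.02 (adjusted p = 0.00418), a value set by a group at 0 and no measure of size.

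**Figure D4:**
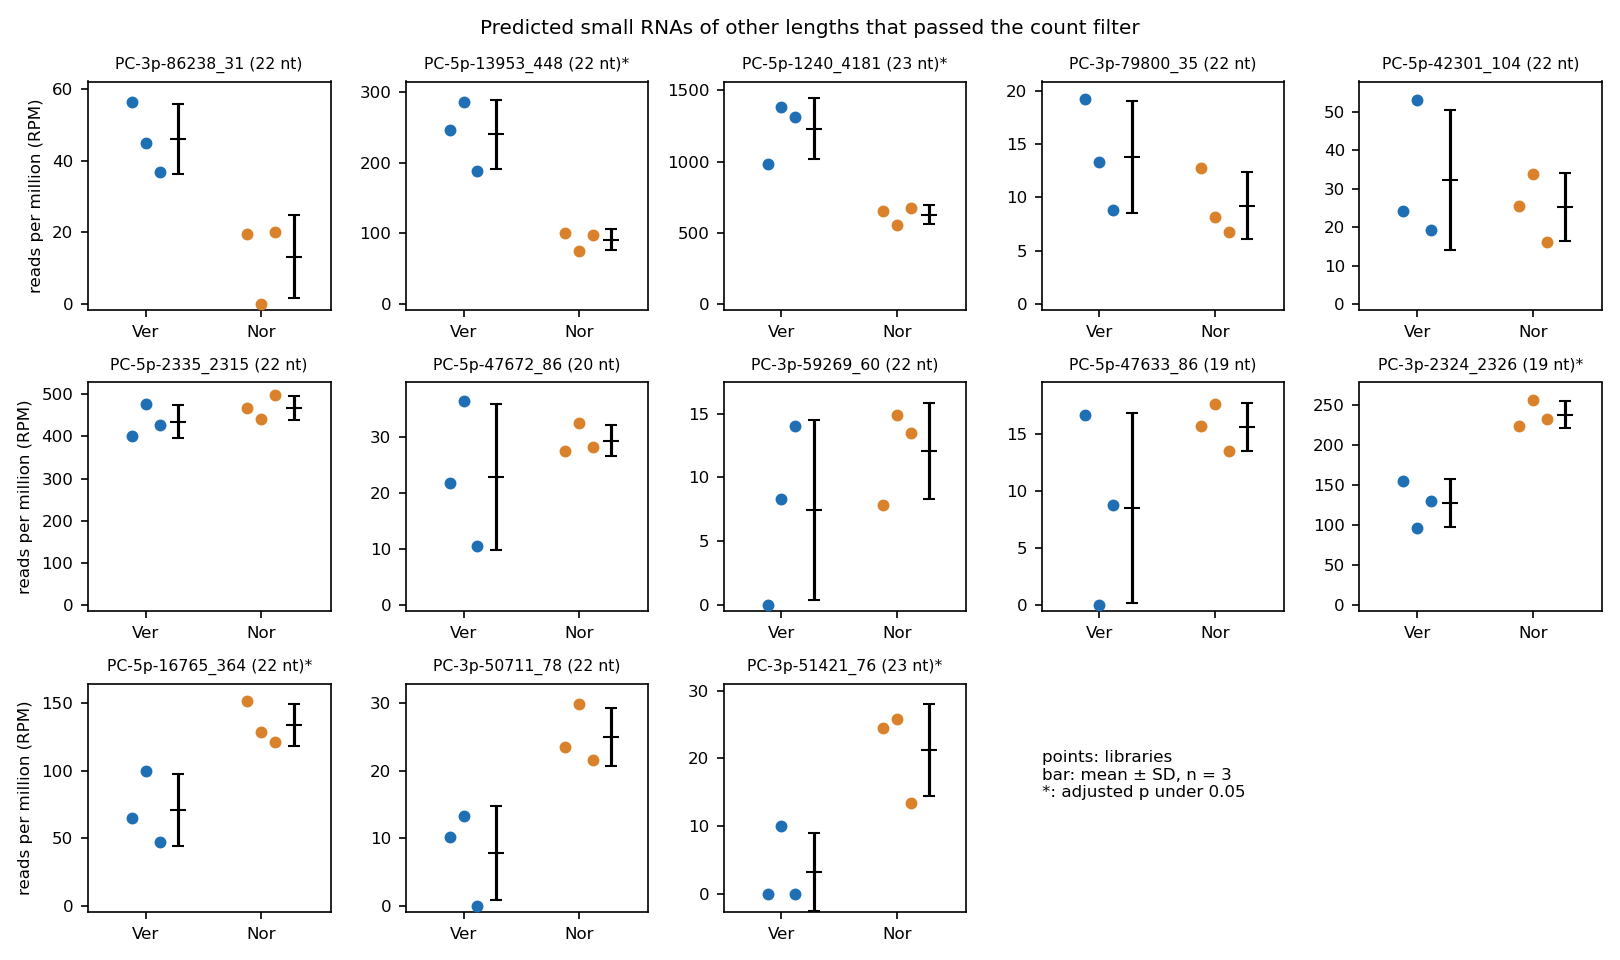
Level in RPM of the 13 members that passed the count filter, in order of log2 fold change, with each library as a point, Ver left of Nor, and the mean ± SD of 3 libraries beside the points. The 5 members marked with an asterisk show no overlap between groups, and PC-3p-86238_31 and PC-3p-50711_78 also show none although their adjusted p were 0.0542 and 0.0758.

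PC-5p-2335_2315, the most abundant 22 nt member, was by sequence closest to miR400, a family described in Arabidopsis thaliana as targeting transcripts of pentatricopeptide repeat proteins. It had 312, 287 and 243 reads in Ver, against 475, 325 and 369 reads in Nor. The level was 435 ± 39.3 RPM in Ver and 468 ± 28.3 RPM in Nor (SD, n = 3 each), and the groups overlapped. The log2 fold change of -0.11 (edgeR, adjusted p = 0.391, SE 0.11) did not pass the test and turned to 0.03 with the normalization factors of the authors and to 0.01 without Ver 1.

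The named member of the family, bra-miR400-5p, had 3267, 2611 and 2188 reads in Ver, against 6281, 4780 and 4801 reads in Nor, a log2 fold change of -0.63 (SE 0.07). Reads of PC-5p-2335_2315 were 9.55%, 10.99% and 11.1% of those of bra-miR400-5p in Ver, and 7.56%, 6.80% and 7.69% in Nor. The ratio averaged 10.5% ± 0.867 in Ver and 7.35% ± 0.480 in Nor (SD, n = 3 each), and the groups did not overlap (exact permutation test, two-sided, p = 0.1, again at its limit). The hairpin of PC-5p-2335_2315 on A05 (16908873 to 16908963, minus strand) carries the listed sequence aly-miR400-3p on its other arm. It is printed with both arms in capitals, so that the duplex can be read.
PC-5p-2335_2315 hairpin: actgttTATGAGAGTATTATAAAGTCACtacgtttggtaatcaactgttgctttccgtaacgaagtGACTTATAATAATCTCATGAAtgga

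The sequence aly-miR400-3p had 62, 71 and 54 reads in Ver and 86, 54 and 53 reads in Nor, a log2 fold change of 0.34 (edgeR, adjusted p = 0.175, SE 0.21), which did not pass the test. PC-5p-2335_2315 thus had several times more reads than aly-miR400-3p in all 6 libraries. The sequence aly-miR400-3p, listed on 2 rows, was matched to this hairpin by sequence alone. Its reads cannot be assigned to this hairpin, so the comparison is of 2 listed sequences and not of the strands of 1 duplex.

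**Figure D5:**
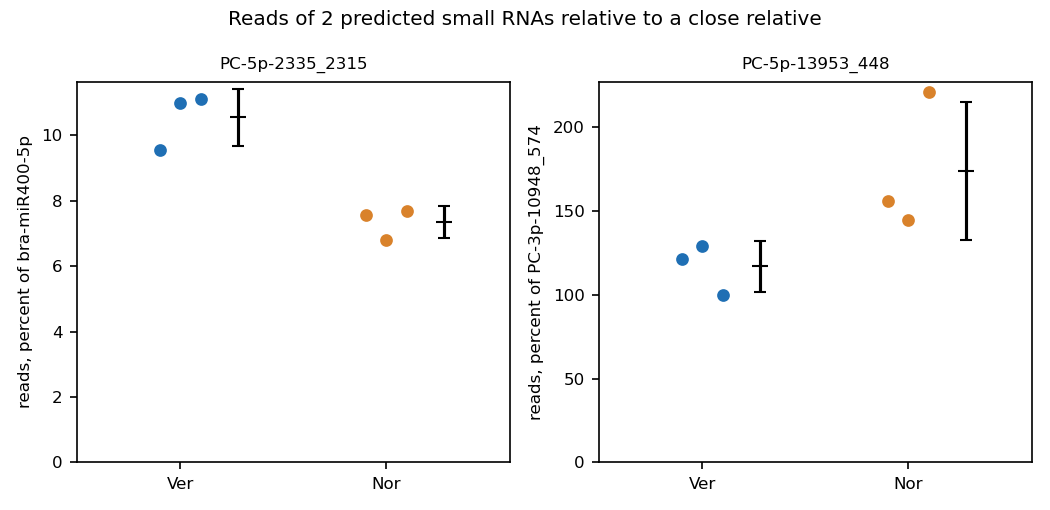
Reads of PC-5p-2335_2315 as a percent of bra-miR400-5p (left panel) and of PC-5p-13953_448 as a percent of the opposite-strand PC-3p-10948_574 (right panel), each point 1 library, Ver left of Nor, with the mean ± SD of 3 libraries beside the points. The miR400 ratio averages 10.5% in Ver and 7.35% in Nor, and the other ratio reaches at most 129% in Ver and lies at 145% to 221% in Nor.

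PC-3p-86238_31 stood on a miR156 hairpin on A08 (13982157 to 13982254, plus strand). It had 44, 27 and 21 reads in Ver, against 20, 0 and 15 reads in Nor. Its log2 fold change was 1.76 (edgeR, adjusted p = 0.0542, SE 0.71), just above the threshold of 0.05, and without Nor 2, the library listed at 0, it was 1.26 with an adjusted p of 0.0297. The sequence is the only one in the table with an N. With that letter read as C it is the miR156 star-strand variant bra-miR156c-3p_1ss11CT, which had 9818, 7598 and 6721 reads in Ver against 6061, 4116 and 4412 in Nor and a log2 fold change of 1.08 (SE 0.06). Reads of PC-3p-86238_31 were 0.448%, 0.355% and 0.312% of that sequence in Ver and 0.330%, 0% and 0.340% in Nor, which overlapped.

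The hairpin also contains the sequence of bra-miR156a-5p, an abundant miRNA. It had 43356, 28570 and 34617 reads in Ver, against 58879, 48962 and 44750 reads in Nor, and did not pass the test (edgeR, log2 fold change -0.17, adjusted p = 0.126, SE 0.09). A longer and rare 5p sequence placed at this hairpin, mtr-miR156b-5p_L+2, was higher in Ver, with 22, 26 and 27 reads in Ver against 9, 6 and 0 reads in Nor (edgeR, log2 fold change 2.71, adjusted p = 0.00753, SE 0.69). The hairpin is printed with mtr-miR156b-5p_L+2 and the star-strand variant in capitals.
PC-3p-86238_31 hairpin: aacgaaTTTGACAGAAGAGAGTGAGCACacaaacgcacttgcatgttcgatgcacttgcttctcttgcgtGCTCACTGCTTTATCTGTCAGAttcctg

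The other 22 nt members that were tested did not pass. PC-5p-42301_104, listed on 2 rows of chromosome A09, had 19, 32 and 11 reads in Ver and 26, 25 and 12 in Nor (log2 fold change 0.35, SE 0.47). Its exact reverse complement PC-3p-79800_35, placed on A06, had 15, 8 and 5 reads in Ver and 13, 6 and 5 in Nor (0.57, SE 0.59). PC-3p-59269_60 had 0, 5 and 8 reads in Ver and 8, 11 and 10 in Nor (-0.75, SE 0.93). These 3 overlapped between groups, and a p above the threshold does not show that their levels were equal.

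PC-3p-50711_78, listed on 2 rows on A01 and A10, did not overlap between groups. It had 8, 8 and 0 reads in Ver, against 24, 22 and 16 reads in Nor. Its log2 fold change was -1.61 (edgeR, adjusted p = 0.0758, SE 0.72), and it was not called under any alternative in which it could be tested.

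Of the tested members of other lengths, PC-5p-47672_86 (20 nt, A02) had 17, 22 and 6 reads in Ver and 28, 24 and 21 in Nor (log2 fold change -0.35, SE 0.44). Over 19 bases with 1 mismatch it is the reverse complement of bra-miR5712_R+3, and the other arm of its hairpin held a listed sequence with 10 reads in Ver 3 only. PC-5p-47633_86 (19 nt, A10) had 13, 0 and 5 reads in Ver and 16, 13 and 10 in Nor (-0.80, SE 0.81). Neither passed the test, and both overlapped between groups.

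Among the members too low to be tested, 5 had reads in all 3 libraries of a group and none in the other, and they are named here after their values were seen. They were 7.81% of the 64 detected members, against 9.40% of all 872 detected sequences of the table. PC-5p-61004_57 (20 nt) had 10.5, 10 and 10.5 reads in Ver and 0 in each Nor library, which at 5 reads in each Nor library made it at least 2.63-fold higher in Ver. The 21 nt PC-5p-39941_114, of which it is the first 20 bases, had 107, 76 and 89 reads in Ver and 0 in each Nor library, at least 22.8-fold higher. The shorter form amounted to 9.81%, 13.2% and 11.8% of the longer in Ver 1, 2 and 3.

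PC-3p-110709_19 (22 nt) had 6, 7 and 7 reads in Ver and 0 in Nor, at least 1.72-fold higher in Ver. Its sister PC-3p-76610_38, which differs from it in 1 base, had 17, 8 and 0 reads in Ver and 0 in Nor, and the 21 nt sequence inside both, PC-3p-31365_162, had 17, 7.5 and 8.5 reads in Ver and 5, 5 and 0 in Nor. PC-3p-106759_21 (20 nt) had 3.5, 4.5 and 2.5 reads in Ver and 0 in Nor, values at or under the 5 reads that a listed 0 allows. Over 17 bases it is the reverse complement of bra-miR156a-5p, and its hairpin on A01 overlaps a miR156 hairpin on the other strand.

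The remaining 2 of the 5 were seen in Nor. PC-5p-88642_29 (22 nt) had 0 reads in each Ver library and 10, 8 and 11 in Nor, at least 1.51-fold lower in Ver. PC-5p-120611_16 (22 nt) had 0 in each Ver library and 3.5, 5 and 11 in Nor, for which no bound was set because 2 of the Nor values lay at or under 5 reads.

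Many members had close relatives in the table. A run of 16 or more identical bases was shared with another listed sequence by 30 of the 68, 15 of 22 nt and 15 of the other lengths, and 35 shared such a run on either strand. The other 33 had no such relative. The largest group by number of members held 11 sequences, 5 of them members (PC-3p-51421_76, PC-3p-219111_6, PC-5p-112382_19, PC-5p-121121_16 and, as reverse complement, PC-5p-120611_16), with 1 predicted 21 nt and 5 predicted 24 nt sequences. Summed over the 11, the group had 25, 23 and 7 reads in Ver, against 87.5, 61 and 90 reads in Nor. Within it PC-5p-112382_19 (19 nt) ran the other way, with 5, 7 and 0 reads in Ver and 0 in Nor.

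A second group held 4 members and no other sequence: PC-5p-42301_104 and PC-5p-249136_5, which differ in 1 base, and, sharing runs with them on the opposite strand, PC-3p-79800_35 and PC-3p-133819_13. Its reads summed to 34, 40 and 21 in Ver and 52, 31 and 17 in Nor, which overlapped. Another group joined 3 members to 4 predicted 21 nt and 6 predicted 24 nt sequences. Of its 13 sequences the members gave only 0, 5 and 0 reads in Ver and 6, 9.5 and 15 in Nor, against group sums of 93.5 to 139 reads in Ver and 158 to 239 in Nor.

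A processed duplex can leave a sequence on the other arm of the hairpin. At identical listed start and end, 8 members had a second sequence in their hairpin, and for 7 of them it lay on the other arm and had reads. PC-5p-2335_2315 is not among the 7, because aly-miR400-3p is listed at positions that do not overlap its hairpin and was matched to it by sequence alone. PC-5p-47633_86 is not among them either. Its hairpin holds aly-MIR838-p3, which is listed at an overlapping but not identical position on the same strand. That sequence had 0 reads in each Ver library and 11, 10 and 0 in Nor. PC-3p-86238_31 and PC-5p-47672_86, described above, were the most abundant of the 7. PC-5p-71878_43 (22 nt) had 2.5, 0 and 2.5 reads in Ver and 5.5, 3 and 5 in Nor, beside a 24 nt sequence listed in Ver 1 only. PC-3p-200827_6, PC-3p-289726_5 and PC-5p-283356_5 had reads in a single library each. PC-3p-200827_6 (23 nt, 6 reads in Ver 3) also overlaps the bra-MIR9554 hairpin on the opposite strand of A06.

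Besides PC-5p-2335_2315, PC-3p-152111_10 (22 nt) had bases 2 to 8 in common with a miRBase name, bna-miR6035_R-3_1ss15CG, which it contains whole. It had 0, 7 and 5 reads in Ver and 0, 0 and 10 in Nor. Of the 5 members on 2 rows, PC-3p-76610_38 is given above, and PC-3p-99879_23 (18 nt) had 11, 5 and 0 reads in Ver and 7, 0 and 0 in Nor. These values overlapped.

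The first base differs between small RNA classes, since in Arabidopsis thaliana ARGONAUTE1 prefers U and ARGONAUTE4, which binds 24 nt RNAs, prefers A. T (U in the RNA) was the first base of 29 of the 68 members (42.6%), 15 of 33 at 22 nt and 14 of 35 at the other lengths. It was the first base of 53 of 101 predicted 21 nt sequences (52.5%) and of 21 of 225 predicted 24 nt sequences (9.33%), where A led with 174 (77.3%). A was first in 18 members (26.5%). No test was made of these counts, as many of the sequences overlap each other.

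The hairpins of the members had a median length of 149.5 nt, a median folding energy of -73.35 kcal/mol and a median MFEI, the energy scaled to length and G+C content, of 1.5 (0.9 to 2.7). For predicted 21 nt and 24 nt sequences the median MFEI was 1.5 and 1.6, and for sequences named after miRBase it was 0.9. For 15 of the 68 members the listed sequence lies in its own listed hairpin only with 1 mismatch, PC-3p-2324_2326, PC-3p-51421_76, PC-3p-59269_60, PC-3p-86238_31 and PC-5p-61004_57 among them. Of the 5 called members, 3 lie in their hairpin unaltered.

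The study named a B. rapa v3.0 reference genome for its long RNA reads, and the build behind the positions of the miRNA table was not given in the sources used here. Of 78 B. rapa miRNA genes of the RefSeq annotation of assembly CAAS_Brap_v3.01 that the table also lists, 71 had identical start and end, so the gene records of that assembly were laid over the hairpins for neighbours only. Of the 71 hairpins on chromosomes A01 to A10, 31 overlapped a gene record, 29 of them a protein-coding one, and 40 did not. PC-5p-1240_4181 fell within LOC103859731, PC-5p-13953_448 within LOC103854671, PC-5p-16765_364 within LOC103849793 and PC-5p-2335_2315 within LOC103874755, all protein-coding. Whether a hairpin lies in an exon or an intron was not examined, since only the gene spans were at hand.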

How the data were processed

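Small RNA was measured in 3 Ver and 3 Nor libraries, grouped by their labels. Per the labels and methods of the study, RNA of whole germinated seeds was made into libraries with a TruSeq small RNA kit. The authors removed adapter, low-complexity and common RNA reads, matched sequences of 18 to 25 nt to miRBase, and predicted hairpins for the rest. The deposited raw values are estimated counts, the normalized values a signal that the authors obtained with 1 factor per library, and the hairpin G+C content a percent given by the authors. The study names a B. rapa v3.0 reference genome for its long RNA reads, whereas the aligner version and the build of the miRNA table were not given in the sources used here. No value column belonged to another sample (0 columns).

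Rows of a sequence were added and rounded to whole numbers. The quasi-likelihood test of edgeR 4.0.16 (R 4.3.3) was fitted to all 889 sequences with the default filter, which kept 405, TMM factors (0.949 to 1.05) on totals over all rows, and Benjamini-Hochberg adjustment over the 405, with an adjusted p under 0.05 as the call. Standard errors were the absolute log2 fold change over the root of F. On data simulated for this comparison (406 sequences tested) 86.5% of 2-fold and 99.0% of 4-fold changes were recovered. The changed sequences were drawn from all that passed the filter, with 1 dispersion for all. The rates are therefore not those of the low members in particular. DESeq2 1.42.0 was an alternative, and Python 3.11.15 did the rest. Because reads carried no molecular identifiers, intervals cover counting error only.

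The members, lists and rules were chosen with earlier results of these data known. Sequences were named by rule: the 8 with the highest mean RPM, the largest rises and falls among called members without overlap (up to 6 each), the tested 22 nt members, called members at or under 5 reads in 1 group (there were none), those with a listed sequence on the other arm (up to 6), those sharing bases 2 to 8 with a miRBase name (up to 6), and those on 2 or more rows (up to 4). Others are named as relatives, as all of a small count, or as stated.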

Additional observations from a re-analysis of the deposited data

How the results depend on the processing

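The count of members called, 5, was 3 under the thresholds of the study and 3 among members that lie unaltered in their hairpin, an alternative chosen after seeing the data. For the 18, 19, 20, 23 and 25 nt members the 3 calls became 1 and 1. The 2 calls at 22 nt became 4 without a count filter, which adds PC-3p-110709_19 and PC-5p-88642_29, each at 0 in a whole group. Leaving out 1 library gave 5 to 7 members called, 1 to 4 at 22 nt (1 without Nor 1, 4 without Ver 3 and 4 without Nor 2) and 2 to 4 at the other lengths. The log2 ratio of the read share, 0.30, was -0.17 without PC-5p-1240_4181, chosen after seeing the data, and 0.18 to 0.36 with 1 library left out. For the 22 nt share it was 0.07 and ranged over -0.07 to 0.19, crossing 0 without Ver 2, and was -0.0027 with a denominator that omits any 18 nt sequence whose last bases are CCA. Detected members numbered 37 in Ver and 54 in Nor, and 31 and 33 at 8.79 RPM, or 16 and 18 with reads in all 3 libraries. With the replicate block 204 sequences and 4 members were called, against 247 and 5, with PC-3p-51421_76 lost (adjusted p = 0.0785). The numbers are not known to pair dishes, since deviations of same-numbered libraries correlated at 0.13, -0.06 and 0.03.

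Log2 fold changes that changed sign were all small and not called: PC-5p-2335_2315 (0.026 with the factors of the authors, and -0.10 to 0.0063 with 1 library left out, above 0 without Ver 1), PC-5p-42301_104 (-0.12 to 0.66 with 1 library left out, below 0 without Ver 2) and PC-5p-47672_86 (-0.74 to 0.028, above 0 without Ver 3). PC-3p-86238_31 was called with DESeq2 size factors (adjusted p = 0.0436), the factors of the authors (0.0408), the DESeq2 test (0.0325), rows not added (0.0465), without Nor 2 (0.0297) and the thresholds of the study (log2 fold change 1.76, unadjusted p = 0.0348). PC-5p-1240_4181, PC-3p-2324_2326 and PC-5p-16765_364 missed the fold threshold of the study. Over all 405 sequences the median log2 fold change was -0.19, -0.06 with the authors' factors and -0.09 with DESeq2 size factors, so small changes depend on the scaling. Depth limits most members, of which 55 of 68 were too low to test. The causes of these shifts were not tested.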
